A study of Mus musculus with 2 samples.

Results

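Long intergenic noncoding RNAs (lincRNAs) expressed in the juvenile mouse heart are described here: 122 of the 5854 genes that GENCODE M21 types as lincRNA, out of 55536 genes in the annotation. They were chosen by their measured level, a TPM (the authors' length- and library-scaled abundance) of 1 or more in both hearts. H19 and Meg3 also passed and were left out by the rule with 4 other imprinted RNAs. Total RNA was sequenced from the whole hearts of 2 male mice of strain B6CASTF1/J, an F1 hybrid of a C57BL/6J and a CAST/EiJ parent, both 25 days old. The animals carry no listed treatment or engineered allele and form a single group, so no comparison between conditions exists. Heart 1 is the animal numbered 3 and heart 2 the animal numbered 4, and the labels give both the same donor identifier. Each library was made from 300 ng of RNA with ERCC spike-ins and is described as stranded and ribosome-reduced.

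A lincRNA is transcribed from its own locus between protein-coding genes, is often spliced, and by its annotation encodes no protein. Some, such as Malat1 and Neat1, stay in the nucleus, where Neat1 scaffolds paraspeckles. Others are known as decoys for RNA-binding proteins or microRNAs, as host transcripts from which small RNAs are cut, or as products of a promoter shared with a neighbouring gene. In the heart, Bvht and Carmn were described as lincRNAs of cardiac development and smooth muscle, and several others lie beside genes of cardiac transcription factors.

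The libraries held 38253821 and 40655101 gene counts, of which mitochondrial genes took 31.7% and 31.0%. The 8 cardiomyocyte markers summed to 31390 TPM in heart 1 and 33535 TPM in heart 2, and all 8 were at 1 TPM or more. The 5 erythroid markers summed to 46562 and 23411 TPM (log2 ratio of summed counts, heart 2 over heart 1, -1.03) and the 5 adipocyte markers to 498 and 267 TPM (-0.95). Of the 4 liver markers, Alb and Fgb were at 0 in both hearts, and the 4 lung markers summed to 0.360 and 3.07 TPM. With 1 library per animal and 1 group, no test was possible and the values below are descriptions of these libraries.

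Most lincRNA genes were listed at 0, and the expressed ones were mostly low. Of the 5854, 4429 (75.7%) were listed at 0 TPM in both hearts, and 2.08% passed the rule, against 49.5% of the 22028 protein-coding genes. The members' median level was 2.52 TPM in heart 1 and 2.76 TPM in heart 2 (2.67 TPM over the mean of both), against 8.13 TPM for the 10906 protein-coding genes chosen by the same rule. In whole tissue, fewer cells of a type and less RNA per cell cannot be told apart. A mean of 10 TPM was reached by 18 members (14.8%, against 43.2% of those protein-coding genes), and 4 members exceeded 1000 TPM. The median member rested on 94.0 and 100 expected counts, and 33 members had under 50 counts in their lower heart.

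A handful of RNAs held nearly all of the lincRNA counts. Gm26917 stood at 6856 TPM in heart 1 and 5997 TPM in heart 2, Malat1 at 1263 and 1363 TPM, Gm42418 at 1204 and 1178 TPM, and Rmrp, the RNA of the mitochondrial RNA processing endoribonuclease, at 1136 and 1069 TPM. Their values in the hearts lay close together. Below them came 4 members between 70.1 and 93.0 TPM, then AC132253.9 at 32.5 and 37.8 TPM, Gm44386 at 32.3 and 27.9 TPM, Tmem250-ps at 20.5 and 23.9 TPM, and Gm5532 at a mean of 20.3 TPM. None of the other 118 members reached 100 TPM. All members together took 2.24% and 2.08% of gene counts. Gm26917, Gm42418 and Malat1 supplied 92.6% and 91.9% of that share, and the other 119 members held 0.167% and 0.169% of gene counts.

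The leading gene and the one in the third place share a locus that is annotated with ribosomal RNA. Gm26917 lies at chr17:39843013-39846341 and Gm42418 at chr17:39846958-39848788 (mm10), both on the plus strand and both with 1 exon. GENCODE places an rRNA gene, CT010467.1, over Gm42418 on the minus strand (1.91 and 2.24 TPM), and RefSeq names Gm42418 as the ribosomal pseudogene Rn18s-rs5. The overlapping lincRNA AY036118 was at 0 in both hearts. Without Gm26917 and Gm42418 the members' share of gene counts was 0.505% and 0.529%. The part that ribosomal RNA has in their counts was not tested.

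**Figure D1:**
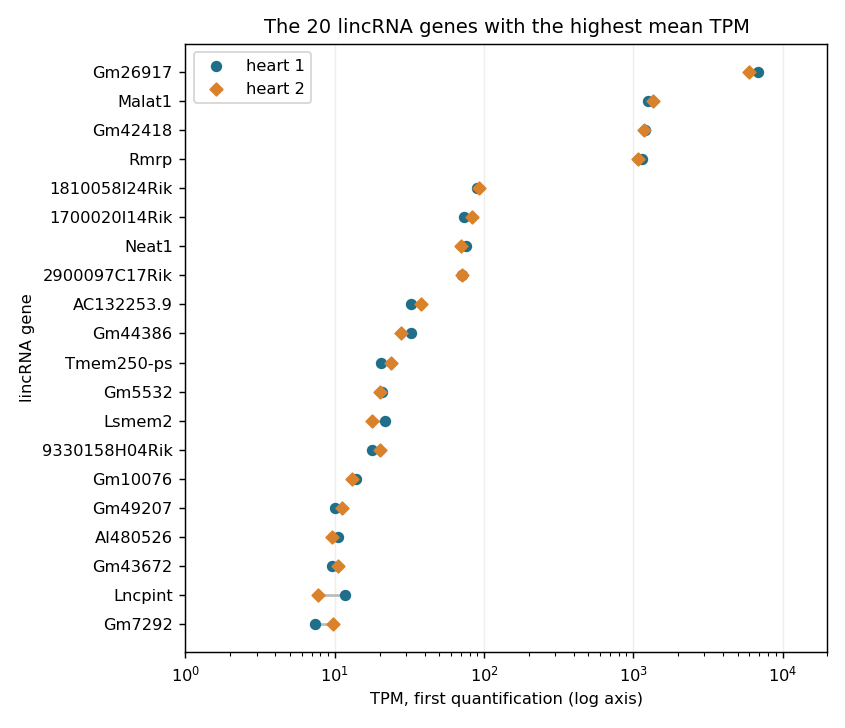
TPM in the first quantification (log axis) of the 20 lincRNA genes with the highest mean level, with a circle for heart 1 and a diamond for heart 2 joined by a line. The 4 leading genes sit above 1000 TPM, the next 4 between 70.1 and 93.0 TPM, and the line between the hearts is longest for Lncpint and Gm7292.

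Neat1 and Malat1 lie within the same region of chromosome 19, at chr19:5824708-5845478 and chr19:5795690-5802672, both on the minus strand. Neat1, the paraspeckle scaffold, stood at 75.6 and 70.1 TPM. Its short form of 3004 bases (Neat1-202) took 85.3% and 89.8% of the gene's isoform share, at 64.5 and 62.9 TPM. The long form of 20771 bases, known as the one that builds paraspeckles, stood at 9.40 and 6.47 TPM. The long form covers the locus of the short one, so reads they share are split by the quantification. For Malat1, an RNA of nuclear speckles, the first quantification gave the full form of 6983 bases 41.4% and 40.2% and spread the rest over 3 spliced forms. The second quantification gave that full form 99.9% in both hearts, and Malat1 as a whole 649 and 711 TPM, a mean log2 ratio of -0.95 against the first.

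1700020I14Rik, known as Cyrano and listed in RefSeq as Oip5os1, was among the most abundant spliced members, at 73.8 and 83.0 TPM. Its 8300-base transcript took 62.8% and 62.5% of the gene's isoform share and its 1381-base transcript the remainder. Cyrano is known for a conserved site that pairs almost fully with miR-7 and directs the decay of that microRNA. The site was found in the GENCODE transcript at positions 2935 to 2959, chr2:119602137-119602161 (mm10, plus strand), and is shown after the microRNA, each written from 5′ to 3′, with the seed (bases 2 to 8) and its match in capitals.
mmu-miR-7a-5p: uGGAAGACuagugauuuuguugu
1700020I14Rik site: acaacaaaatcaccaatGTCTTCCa
Of the 23 bases of the microRNA, 22 lined up with a complementary base of the site, with 2 bases of the site left over as a bulge. The seed match by itself, GTCTTCC on the transcript strand, is common. It occurred in 23 of the 122 members' longest transcripts (18.9%) and in 646 of the 5732 other lincRNA genes (11.3%), which were shorter. Per kb it occurred 0.106 times in members and 0.111 times in the others. A match is a description of the letters and no measure of binding.

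2900097C17Rik, known as Norad and so named in RefSeq, stood at 71.6 and 71.0 TPM, the closest pair of values among the members above 50 TPM. Norad is known as a decoy for the Pumilio proteins, which bind an RNA motif and repress the messages that carry it. The motif was searched as TGTANATA on the transcript strand. Norad held 11 matches in 4915 bases, more than any other of the 5854 lincRNA genes. Next in that order came Gm7292, another member, with 9 matches in 2527 bases. Gm7292 (7.43 and 9.80 TPM) lies on chromosome 6. Its leading transcript, a shorter one of 995 bases, matched Norad with 99.1% identity. The 60 bases centred on the closest pair of motifs in each are shown, the motifs in capitals.
2900097C17Rik window: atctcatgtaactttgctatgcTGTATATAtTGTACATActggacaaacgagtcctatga
Gm7292 window: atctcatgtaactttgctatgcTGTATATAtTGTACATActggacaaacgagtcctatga
These lie at chr2:156390501-156390560 (minus strand) and chr6:117718735-117718794 (plus strand) in mm10 and are identical in 60 of 60 bases. Sequence cannot assign a read that lies wholly within such a stretch to either gene. How many reads reach a differing base was not tested. Neat1 held 4 matches and 9330158H04Rik 3, while 95 members held none. A match occurred in 27 members (22.1%) and in 786 of the 5732 other lincRNA genes (13.7%). Without Norad and Gm7292, members carried 0.125 matches per kb and the other lincRNA genes 0.121.

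**Figure D2:**
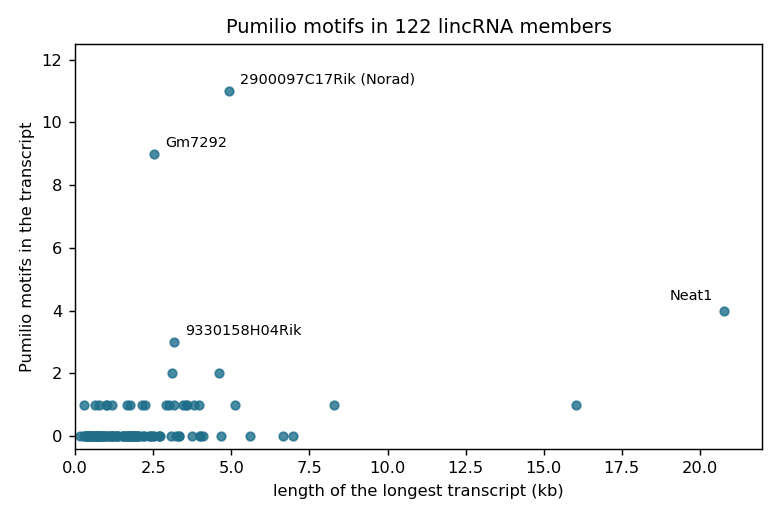
Number of matches to the Pumilio motif on the transcript strand against the length of the longest transcript in kb, with 1 point for each of the 122 members. 2900097C17Rik (Norad) with 11 matches and Gm7292 with 9 stand above Neat1, which has 4 over the longest transcript.

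Some members are protein-coding genes in other annotation. RefSeq (GRCm38.p6) matched 83 members by symbol or synonym and called 68 of them lncRNA, 10 protein-coding and 4 pseudogenes of either kind, the remaining match being Rmrp. 1810058I24Rik, the most abundant of the 10, stood at 90.4 and 93.0 TPM. Its product is known as a short peptide of mitochondria. Tmem250-ps was another of the 10. Lsmem2, which encodes a small membrane protein of muscle, stood at 21.8 and 17.7 TPM. Zfp469, a zinc finger gene, was near the threshold at 1.20 and 1.13 TPM. Prr33, also known from muscle, kept the lncRNA type in RefSeq and stood at 3.17 and 3.14 TPM.

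Host transcripts of small RNAs formed another group: 10 members contain a microRNA, snoRNA or scaRNA gene on their strand. Of these, 5 hosts carry 7 microRNA genes, whose mature sequences RefSeq gives for 7 of 7. The strands best known for each are shown with the seed in capitals, because the seed sets which messages a microRNA recognises.
mmu-let-7a-5p: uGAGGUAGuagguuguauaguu
mmu-let-7f-5p: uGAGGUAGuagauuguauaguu
mmu-let-7d-5p: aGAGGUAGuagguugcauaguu
mmu-miR-30c-5p: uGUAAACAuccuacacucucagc
mmu-miR-101a-3p: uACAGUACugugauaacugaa
mmu-miR-1839-5p: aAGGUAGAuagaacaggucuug
mmu-miR-6516-5p: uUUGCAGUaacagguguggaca
The 3 let-7 microRNAs share 1 seed. The let-7 genes counted here, Mirlet7a-1, Mirlet7f-1 and Mirlet7d, lie in 1 host, 6720427I07Rik on chromosome 13 (mean 1.49 TPM, SD 0.0141). Other loci that may give the same mature sequences were not counted. The let-7 family is known for restraining growth genes in differentiated cells. Each of the others has a seed of its own. Gm27028, which contains Mir30c-2 of a family abundant in heart muscle, stood at 2.55 and 2.09 TPM, and E130102H24Rik, which contains Mir101a, at 1.29 and 1.02 TPM. 2900076A07Rik (1.85 and 1.67 TPM) contains Mir1839. All 7 microRNA genes were listed at 0 in both hearts, and no small-RNA library was used here, so the hosts' levels say nothing about the mature RNAs.

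The snoRNA hosts of the Snhg class are known for introns that release guides of ribosomal RNA modification. Snhg6 stood at 6.33 and 4.94 TPM, Snhg12 at 3.69 and 2.77 TPM, and Snhg18 at 1.79 and 2.07 TPM. Snhg20 stood at 3.46 and 4.12 TPM. Of the hosted genes, 4 had counts in both hearts. Snora44 in Snhg12 stood at 28.3 and 40.4 TPM (28 and 43 counts) and Snora61 in the same host at 13.0 and 7.54 TPM. The scaRNA Gm26083 in Snhg20 stood at 24.6 and 25.4 TPM from 76 and 84 counts. Its host was lower in TPM but had a like number of counts, 67 and 87, and an exon of the host overlaps it on the same strand. Gm23639 in Epb41l4aos stood at 1.85 and 4.31 TPM from 2 and 5 counts. All 4 were at 0 in both hearts in the second quantification, where Snhg20 stood at 23.5 and 26.8 TPM.

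Members lay closer to protein-coding genes than other lincRNA genes did. The start of 19 members (15.6%) was within 1 kb of a protein-coding start in head-to-head orientation, the layout of a shared, divergent promoter, against 231 of 5729 other lincRNA genes (4.03%), a count that leaves out the imprinted genes. The nearest protein-coding start was over 100 kb away for 18.9% of members and 41.6% of the others. Of the 19 head-to-head partners, 18 were at 1 TPM or more in both hearts (94.7%), against 64.9% of the partners of the other lincRNA genes. Within the head-to-head pairs the order was reversed, with a median distance between start sites of 266 bp for members and 155 bp for the other lincRNA genes. Since members were chosen by their level, these shares describe the chosen genes and carry no test.

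**Figure D3:**
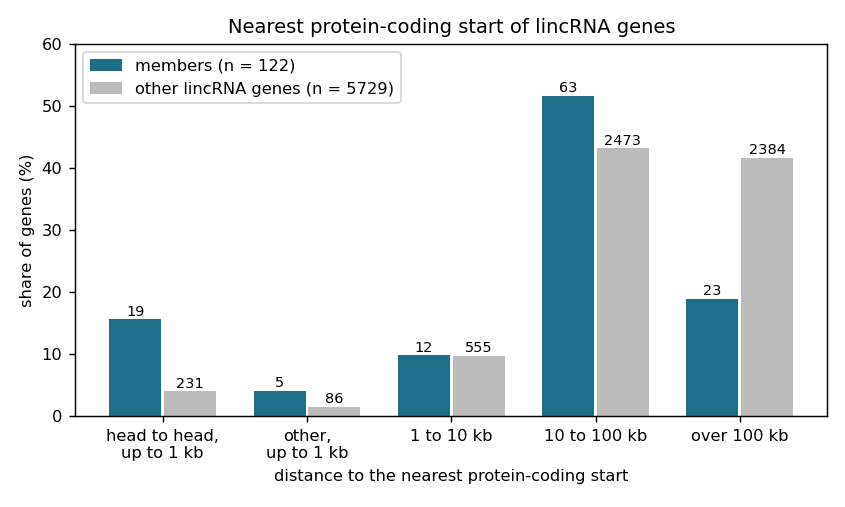
Share of genes (percent, from 0) by the distance and orientation of the nearest protein-coding start, for the 122 members and 5729 other lincRNA genes, with the number of genes above each bar. The head-to-head class holds 15.6% of members and 4.03% of the others, and the class over 100 kb holds 18.9% and 41.6%.

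Some partners are genes known from heart or muscle. The pairs named here were picked out after their values were seen. Gm43050 (4.36 and 5.43 TPM) starts 748 bp from Tbx5, a transcription factor of the cardiac chambers, which stood at 9.69 and 10.4 TPM. Gm12319 (6.87 and 5.73 TPM) starts 709 bp from Eno3, the muscle enolase, at 659 and 755 TPM. C030037D09Rik (3.05 and 4.05 TPM) starts 132 bp from Msi2, an RNA-binding protein, at 64.9 and 68.4 TPM. The member was the lower partner in each of these pairs. Myl6b, the partner of A430046D13Rik (2.66 and 2.77 TPM), was the exception to the threshold, at 1.19 and 0.880 TPM. AI480526 (10.6 and 9.66 TPM) was above its partner Setd1b, a histone methyltransferase, at 5.67 and 5.14 TPM.

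The promoter table held 64 members, 10 of them head to head, and in 6 of those 10 the window took in both start sites. C030037D09Rik and Snhg18, whose partner Sema5a (3.67 and 3.43 TPM) encodes an axon guidance protein, are shown as examples. Each is the RefSeq window from 250 bases before to 50 after the member's RefSeq start, on the member's strand, and the capitals run from one GENCODE start site to the other.
C030037D09Rik promoter: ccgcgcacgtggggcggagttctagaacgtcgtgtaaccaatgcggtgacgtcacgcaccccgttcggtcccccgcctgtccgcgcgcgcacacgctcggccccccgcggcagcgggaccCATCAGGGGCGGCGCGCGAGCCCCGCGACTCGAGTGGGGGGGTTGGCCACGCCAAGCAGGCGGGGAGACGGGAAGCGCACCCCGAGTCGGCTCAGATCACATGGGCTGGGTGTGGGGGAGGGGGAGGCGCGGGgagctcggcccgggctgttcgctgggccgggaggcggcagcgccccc
Snhg18 promoter: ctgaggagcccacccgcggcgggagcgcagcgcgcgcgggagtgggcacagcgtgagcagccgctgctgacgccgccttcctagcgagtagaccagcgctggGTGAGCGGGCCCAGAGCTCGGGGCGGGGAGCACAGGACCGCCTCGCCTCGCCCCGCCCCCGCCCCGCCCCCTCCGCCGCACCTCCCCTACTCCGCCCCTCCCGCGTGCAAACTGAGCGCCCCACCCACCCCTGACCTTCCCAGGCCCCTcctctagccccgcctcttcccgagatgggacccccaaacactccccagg
The windows are chr11:88718393-88718692 (plus strand) and chr15:32244613-32244912 (minus strand) of GRCm38.p6, with 132 and 148 bp between the start sites. Both are rich in G and C, at 75.7% and 75.3%, with 42 and 31 CpG dinucleotides. Over the 10 head-to-head windows the median was 73.5% G and C and 34.0 CpG, against 52.0% and 8.00 for the other 54 members and 52.7% and 7 for all 27025 windows of that table. The 10 ranged from 49.0% and 6 CpG (Gm28651) to 86.7% and 54 CpG (Fam120aos). The letters TATAAA, searched on both strands, were in 0 of the 10, in 12 of the other 54 (22.2%) and in 3827 of all windows (14.2%). These windows show base composition only.

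Some other members have a cardiac gene as their nearest protein-coding gene without sharing a start. These examples were picked out after their values were seen, and the share of members with such a neighbour was not counted. Gm34030 (5.74 and 4.76 TPM) and 5033428I22Rik (1.29 and 1.78 TPM), which overlap on opposite strands, were the lincRNA members nearest Hand2, a transcription factor of the right ventricle, at 15.3 and 20.3 TPM. 9330158H04Rik (17.8 and 20.2 TPM) overlaps an exon of Chrm2, the muscarinic receptor of the heart (25.8 and 30.3 TPM), on the opposite strand. AC158549.1 (4.95 and 3.23 TPM) lies 24714 bp from Adrb1, the beta-adrenergic receptor gene, at 7.25 and 8.69 TPM. That distance is near the median of 24991 bp over all members. On chromosome 18, Carmn (3.35 and 2.91 TPM) and Bvht (1.56 and 1.51 TPM) are neighbours whose nearest protein-coding gene, Il17b, was at 0.05 and 0 TPM. Exons of 16 members overlapped another gene on the same strand and exons of 26 on the opposite one, 36 members in all. Strand cannot separate the reads of overlaps on the same strand. For overlaps on the opposite strand, the reads cannot be told apart without knowing the strand setting of the counting.

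Among 44 widely studied long noncoding RNA names, 41 were found in the annotation and 23 of these had the lincRNA type. Of the 23, 11 were members and 12 fell below the rule, among them Miat, known from myocardial infarction studies, at 0.11 and 0.13 TPM, and Hotair and Hottip at 0 in both hearts. A further 14 of the names passed 1 TPM in both hearts under another gene type and are not members. The highest of those included Hand2os1, a regulator of its neighbour Hand2, at a mean of 49.3 TPM, and Mhrt, the antisense RNA of the myosin heavy chain locus, at 25.9 and 30.1 TPM. Lncpint, a p53-induced RNA and a member, stood at 11.8 and 7.77 TPM.

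Members with names of their own were mostly low. Dubr, known for a part in the differentiation of skeletal myoblasts, stood at 2.08 and 1.75 TPM. Gm14005, named Morrbid in RefSeq and known from the control of myeloid cell survival, stood at 2.01 and 1.75 TPM. AW112010, an RNA induced in immune cells, stood at 5.38 and 5.85 TPM. Lppos (4.68 and 5.16 TPM) starts 81 bp from Lpp, a gene of cell adhesion sites, with its exon over an Lpp exon on the opposite strand. Fam120aos stood at 1.69 TPM in both hearts and starts 270 bp from Fam120a, at 35.4 and 39.2 TPM. Bc1, a short cytoplasmic RNA known from neurons, was near the threshold at 1.33 and 1.24 TPM.

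The members had few exons. The longest transcript of 29 members (23.8%) had a single exon, against 6.4% of the other lincRNA genes and 5.7% of the protein-coding genes of the same rule. The longest transcripts ranged from 168 to 20771 bases with a median of 1629, between the 971 of other lincRNA genes and the 3464 of protein-coding genes. Median G and C content was 47.2% in members, 45.9% in other lincRNA genes and 49.8% in protein-coding genes. Of the 96 lincRNA genes on the X chromosome, 0 were members, a share near the 2.08% of all lincRNA genes. Among protein-coding genes, 34.0% of the 948 on the X chromosome passed the rule and 49.5% overall. Ftx, at 1.02 and 0.800 TPM, and Jpx, at 0.980 and 0.900 TPM, both of the X inactivation centre, were highest of the 96 by their lower heart. In the second quantification both genes were above 1 TPM in both hearts, Ftx at 1.10 and 1.17 TPM and Jpx at 1.35 and 1.64 TPM.

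Of the 69 members with more than 1 annotated transcript, 56 had the same leading transcript in both hearts, and in 46 it held over 50% of the gene's isoform share in both. The second quantification named that same transcript in both hearts for 40. Gm10076 showed the widest disagreement among the leading 15: its 383-base form held 21.4% in heart 1 and 95.4% in heart 2, against a 384-base alternative.

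The deposited tables include another quantification of the same reads, and for most members it gave a like level. In both hearts 110 of 122 members stayed at 1 TPM or more (90.2%), against 96.2% of all 11819 genes of the same rule and 99.3% of its protein-coding genes. The ratio was taken as the log2 of TPM + 0.1, which understates the change of low genes. By that ratio 9 members were 2-fold or more higher in both hearts, where 1.78% of all genes were, and 8 were 2-fold or more lower, where 3.66% were. The first quantification's TPM chose the members, so these counts are a description. The median ratio was 0.31 for members and 0.27 for protein-coding genes.

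Members with a near-identical copy elsewhere in the annotation held most of those differences. A copy of at least 95% identity over at least 50% of the leading transcript was found for 18 members, and for 10 of these a copy was a protein-coding gene. For Gm49749 that gene is Pcnx, whose exons overlap its own on the same strand, so this match need not be a second locus. AC132253.9 (32.5 and 37.8 TPM) was also one of the 18. It matched Gm47547 (12.3 and 14.3 TPM) with 98.4% identity over 100% of its length, and stood at 44.0 and 52.7 TPM in the second quantification. Among the 18, 4 were higher and 7 lower by 2-fold or more (61.1%), and among the 104 without a copy, 5 were higher and 1 lower (5.77%). The second quantification listed 6 members at 0 in both hearts, all with a copy. Rmrp, annotated under another gene identifier of type ribozyme at the same place (782 and 728 TPM), was one of them, and both identifiers were at 0 there. Gm10076 (13.8 and 13.0 TPM) copies Rpl41, a ribosomal protein gene, and Gm49207 (mean 10.6 TPM) copies Ahsa1, a cochaperone of Hsp90. Gm11008, Gm47101 and Bc1 were the others, and Bc1 rested on 3 counts in each heart. Snhg20 was the highest of the members without a copy to differ, at 23.5 and 26.8 TPM in the second quantification, where its 459-base form held 18.4 and 19.5 TPM, against 0.210 and 0.310 TPM in the first. Bvht was another, at 4.12 and 4.65 TPM there.

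Gm20186 and Gm12840 moved furthest upward. Gm20186 went from 6.40 and 4.45 TPM to 149 and 96.7 TPM, and Gm12840 from 5.22 and 3.45 TPM to 160 and 111 TPM. They lie on chromosomes 6 and 4 and matched with 97.5% identity. A stretch of 60 bases that each carries in 1 exon is shown, with the bases that differ in capitals.
Gm20186 stretch: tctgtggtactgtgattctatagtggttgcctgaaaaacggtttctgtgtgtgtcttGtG
Gm12840 stretch: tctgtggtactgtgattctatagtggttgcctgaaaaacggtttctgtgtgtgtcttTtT
In this stretch, chr6:18846273-18846332 (minus strand) and chr4:117700589-117700648 (plus strand) in mm10, 2 of 60 bases differ. Their levels are uncertain, since the quantifications differ by 4.47 and 4.94 on the log2 scale.

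**Figure D4:**
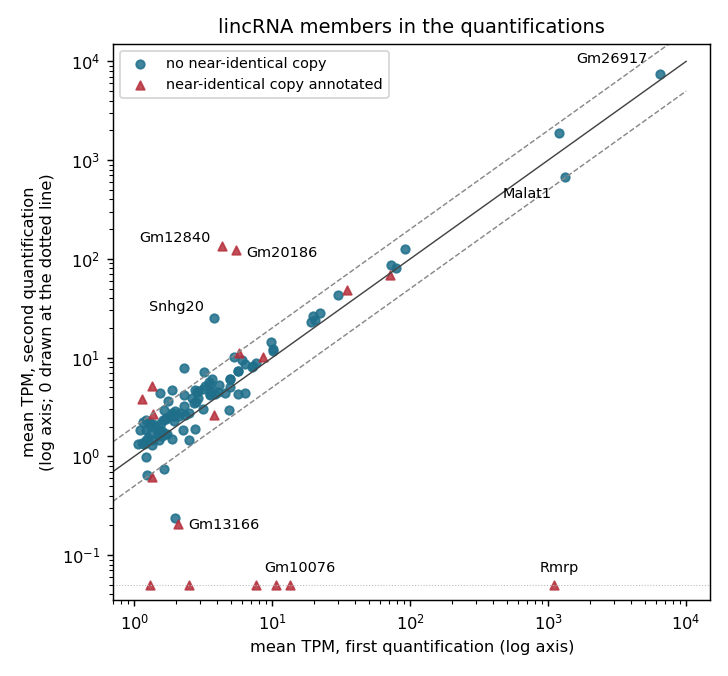
Mean TPM of each member in the second quantification against the first (log axes, 0 drawn at the dotted line), with triangles for the 18 members that have a near-identical copy and circles for the other 104; the solid line is equality and the dashed lines 2-fold. The 6 members at 0 are all triangles, and Gm20186 and Gm12840 are the triangles furthest above the line.

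Between the hearts, no member passed 2-fold, a share near that of all genes. The typical ratio was wider than over all genes, a comparison not matched for counts. With edgeR's TMM scaling, 102 members reached a mean of 1 CPM (counts scaled to the library total), and 0 of them differed by 2-fold or more, against 1.19% of all 12911 genes past that filter and 0.770% of the 11559 that also passed the TPM rule. The other 20 members were under the filter. At 1.5-fold, 1 member was higher in heart 2 and 5 were lower (5.88% of the 102), against 4.55% of all genes in either direction. The median absolute log2 ratio was 0.19 for members and 0.12 for all genes, and 52 members lay above 0 and 50 below. Members had fewer counts (medians of 94.0 and 100) than the protein-coding genes of the TPM rule (621 and 681). Over all genes, the 5th and 95th percentiles were -0.798 and 0.648 in the bin from log10 mean count 1.5. They were -0.293 and 0.225 in the bin from 3.0, and -1.032 and 0.223 in the top bin, from 5.0 with 21 genes. The part that counts have in the wider ratio was not tested. The interval of the ratio, which covers counting error only, excluded 0 for 25 of the 102 (24.5%), against 33.2% of all genes past the filter. The width of that interval also depends on counts.

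The 6 members past 1.5-fold had between 42 and 294 expected counts in a heart. Gm19277 was lower in heart 2, at 71 and 42 expected counts (log2 ratio -0.90, 95% interval -1.48 to -0.33). BC002059 followed at 102 and 66 counts (-0.77, -1.24 to -0.31) and then Lncpint at 294 and 202 counts (-0.68, -0.95 to -0.42). AC158549.1 and Gm12840 were at -0.64 and -0.63. Gm15408 was the member most above 0, at 62 and 107 counts (0.65, 0.18 to 1.12). Gm19277, BC002059, AC158549.1 and Gm15408 were picked out after their values were seen. Of the abundant members, Malat1 had a ratio of 0.04, Norad -0.05, Cyrano 0.13, Gm26917 -0.23 and Neat1 -0.31. The summed erythroid and adipocyte markers, at -1.03 and -0.95, differed by more than any member past the filter, and their part in these ratios was not tested.

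**Figure D5:**
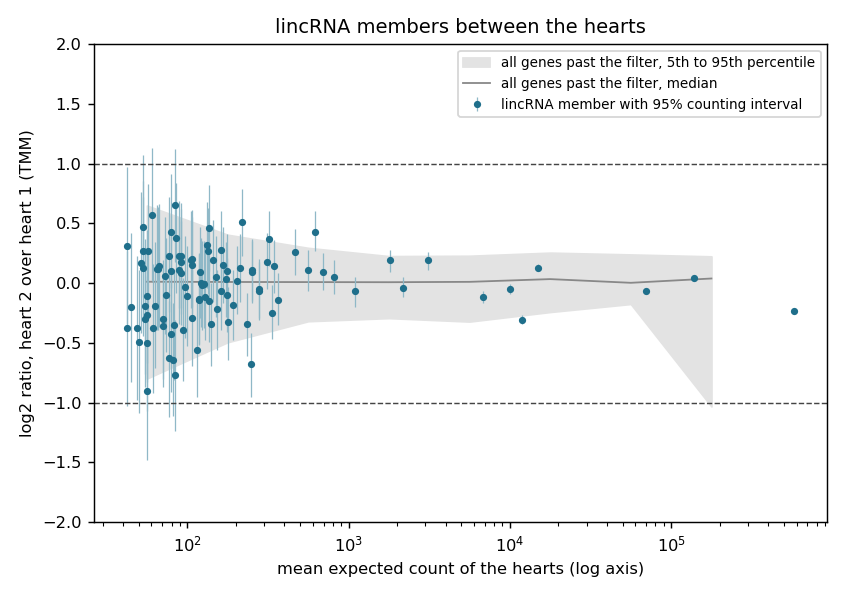
Log2 ratio of heart 2 over heart 1 after TMM scaling against the mean expected count (log axis) for the 102 members past the filter, with 95% counting intervals; the grey band is the 5th to 95th percentile of all genes past the filter and the dashed lines are 2-fold. All members lie between -0.90 and 0.65. The grey band is narrower in the bin from log10 mean count 3.0 than in the bin from 1.5, and its lower edge falls to -1.032 in the top bin of 21 genes.

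The threshold cut through a continuum of levels. Just inside it were 2610035D17Rik at 1.00 and 1.58 TPM, E130102H24Rik at 1.29 and 1.02 TPM, and Eprn at 1.17 and 1.04 TPM. Just outside were A330102I10Rik at 1.51 and 0.990 TPM, Mkln1os at 1.08 and 0.980 TPM, and Gm33424 at 0.970 and 1.26 TPM. None of these 6 genes had more than 75 expected counts in a heart.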

How the data were processed

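Total RNA from 2 hearts was measured, and the deposited gene tables give the authors' expected counts and TPM for each library, with transcript tables that add an isoform percent. A second pair of transcript tables, also deposited, gives estimated counts and TPM, summed here over each gene's transcripts. The column names are those RSEM and kallisto write; the sources used here do not name the tools, their settings or how strand was handled. Build mm10 is per the labels. No unit was renormalized except as stated.

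Gene types came from GENCODE M21 by identifier. The members and the lists were chosen with earlier results of these data known. The rows of 26248 transfer RNA genes and the spike-ins were left out of totals. Expected counts were rounded for TMM factors (edgeR 4.0.16, R 4.3.3), and ratios between hearts were taken where the mean reached 1 CPM, with exact binomial intervals at 95%. A count of 3 in a library, 0.0784 and 0.0738 CPM, is the limit that a count of 0 allows. Copies were sought with BLAST+ 2.17.0 on the plus strand of GENCODE transcripts. Promoters and microRNAs are RefSeq sequences on GRCm38.p6, and the other sequences GENCODE transcripts. The step that takes ratios between hearts was checked on simulated counts with known changes, and the other steps were not.

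The genes named were the 15 highest members, members with a symbol that is not a Gm or Rik model, those furthest apart between hearts past 2-fold (none), the 5 furthest apart between quantifications each way, small RNA hosts, genes at the threshold, a list of 44 known RNAs, and neighbours of these. Some members were named only after their values were seen, among them Gm19277, Gm15408, BC002059 and AC158549.1. The alternatives tried are given in the closing section. The hearts' labels do not say whether they share a litter, and the spread of 2 libraries is the only error measured.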

Additional observations from a re-analysis of the deposited data

How the results depend on the processing

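The number of members depended on the threshold: 184 lincRNA genes passed at 0.5 TPM and 68 at 2 TPM, against 122 at 1 TPM. It was 143 with the posterior mean TPM and 179 in the second quantification. The members' median level was 3.36 TPM in the second quantification against 2.67 TPM. Their share of gene counts, 2.16% as the mean of the hearts, was 2.72% in the second quantification, 1.82% without Malat1, 3.15% of a total without mitochondrial genes and 0.517% without Gm26917 and Gm42418. With the spike-ins as the scale, which moved the median log2 ratio of all genes to -0.14, 1 of 102 members (Gm19277, -1.04) differed by 2-fold between the hearts, against 1.54% of all genes, and at 1.5-fold 6 did with TMM, against 4.55%. The count was 0 with plain CPM (1.14% of all genes), median-of-ratios factors (1.18%), the second quantification (1.03%) and no filter (10.7%, over 21051 genes that include the lowest). Between the quantifications 17 members differed by 2-fold, and 6 once those with a near-identical copy were left out. Leaving out Gm26917 and Gm42418 or the members with a copy were alternatives chosen after seeing the data. The ratio between hearts has no value without either heart. No paired analysis was possible because there is 1 group. Depth limits the low members most: 18 had under 30 counts in the lower heart.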
